A study of Mus musculus with 12 samples.

Results

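The 8 mouse genes described here are *Stk32b*, *Nptx1*, *Sstr2*, *Lcat*, *Hs3st3b1*, *Cxxc5*, *Parvb* and *Colgalt2*, out of 54532 genes counted in each sample. They were chosen by their measured R206H differences, which were larger in the presence of H3.1K27M than in its absence. That choice used these same 12 samples, so their R206H differences in either background, and the gap between them, are given as a description. Where such a difference is said to lie past a threshold, this only places the gene among all genes and is no independent test of it. RNAseq had been performed on brainstem progenitors of C57BL/6 mouse pups that carried Nestin TVA and p53 floxed alleles, taken at postnatal days 3 to 5 by the labels and day 3 by the methods of the study. The cells grew as neurospheres in serum-free medium with EGF and FGF2 and received RCAS viruses coding for human ACVR1. Of the 4 groups of 3 samples, a pair had *ACVR1* WT, either alone or with H3.1K27M, and a pair had *ACVR1* R206H, likewise alone or with H3.1K27M. Infection is limited to cells with the Tv-a receptor, here under the nestin promoter. All 4 groups share the floxed p53 alleles, no Cre virus is named for these cultures, and the groups without H3.1K27M are not labelled as having received a wild-type histone virus. The labels do not tie replicate numbers to litters or cultures, so p values measure the spread between these samples, which may be technical.

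ACVR1 is a type I receptor for bone morphogenetic proteins (BMPs). R206H lies next to the kinase domain, makes the receptor overactive, and raises signaling through SMAD proteins to targets such as the *Id* genes. H3.1K27M is a histone H3 variant with a lysine-to-methionine change that lowers the repressive trimethyl mark of that residue across the genome, and it occurs together with *ACVR1* mutations in diffuse intrinsic pontine glioma. The 8 genes code for a protein kinase (*Stk32b*), a secreted protein that clusters glutamate receptors at synapses (*Nptx1*), an inhibitory neuropeptide receptor (*Sstr2*), a plasma enzyme that esterifies cholesterol on lipoproteins (*Lcat*), an enzyme that sulfates heparan sulfate chains (*Hs3st3b1*), a zinc finger protein of BMP and Wnt signaling (*Cxxc5*), a focal adhesion protein (*Parvb*) and a collagen galactosyltransferase (*Colgalt2*).

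In all 8 genes, each of the 3 *ACVR1* R206H with H3.1K27M samples was higher than each of the other 9 samples in CPM, the count scaled to library size after TMM normalization. Against the 3 *ACVR1* WT with H3.1K27M samples alone, 14.8% of all genes tested were separated as higher. The share of all genes that were highest against all 9 was not counted, so nothing is read from this order. The order of the other 3 groups differed between genes. In the H3.1K27M background, the R206H log2 fold change (*ACVR1* R206H over *ACVR1* WT) ran from 0.58 for *Nptx1* to 2.20 for *Lcat*, with a median of 1.12 against 0.00 over the 15672 genes tested. Without H3.1K27M it ran from -0.56 for *Sstr2* to 0.42 for *Stk32b*, with a median of 0.16 against -0.01 over 15066 genes. All 8 had an adjusted p under 0.05 with H3.1K27M by the quasi-likelihood F test of edgeR (Benjamini-Hochberg adjustment over all genes), where 20.3% of all genes tested did so, 11.4% as higher and 8.95% as lower. Without H3.1K27M, 0 of the 8 did, where the percentage over all genes was 0, with 534 genes at an unadjusted p under 0.05 in edgeR and 26 genes past the threshold in DESeq2. The difference between the backgrounds (the interaction) passed in 7 of the 8 and in 0.0712% of 15445 genes, 0.0583% in the positive and 0.0129% in the negative direction. With the replicate number as a block it passed in 0 of the 8 and in 2 of the 15445 genes. With limma voom it passed in 1 of the 8 and in 3 of the 15445 genes. The 8 were chosen for this difference, so nothing is read from these counts.

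**Figure D1:**
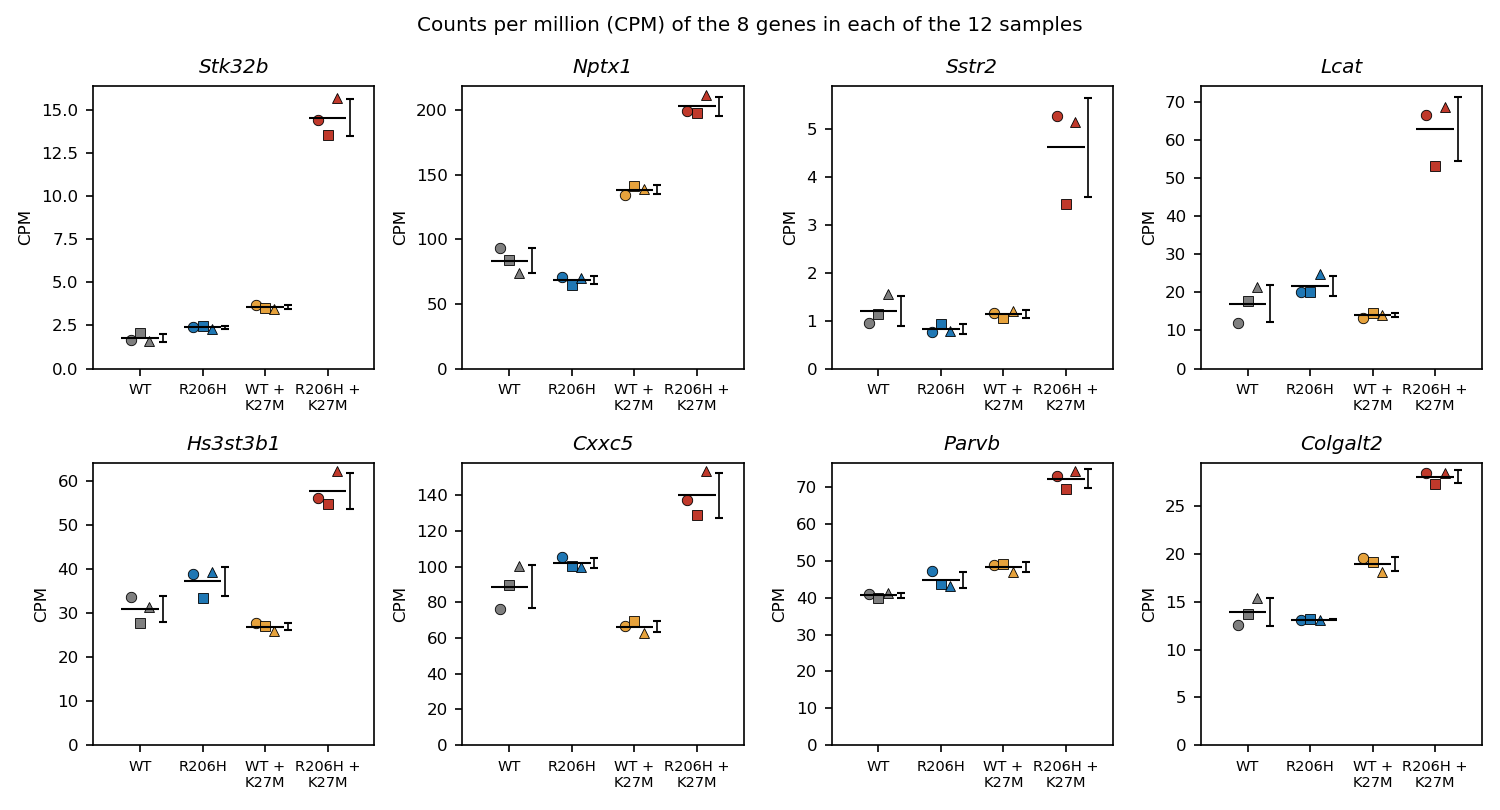
Each panel plots the CPM of 1 gene on the y axis for the 3 samples of each group on the x axis (circle, square and triangle for replicates 1, 2 and 3; horizontal line, mean; bar, SD, n = 3). The 3 *ACVR1* R206H with H3.1K27M samples are the highest in all 8 panels, from 3.43 to 5.28 CPM for *Sstr2* and from 198 to 211 CPM for *Nptx1*.

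In the absence of H3.1K27M the 8 genes were not alike in their sample values, which are given as a description since the choice used them. Without H3.1K27M, the 3 *ACVR1* R206H samples all lay above the 3 *ACVR1* WT samples for *Stk32b* and *Parvb*, as for 5.34% of the genes tested. They all lay below for *Nptx1* and *Sstr2*, as for 3.87% of the genes, although for *Sstr2* the nearest samples differed by only 0.941 against 0.936 CPM. The groups overlapped for *Lcat*, *Hs3st3b1*, *Cxxc5* and *Colgalt2*. What all 8 share is a larger R206H difference with H3.1K27M than without it, which is how they were chosen.

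Libraries held from 19315020 to 26456257 counts, and replicates of a group differed by more than sampling noise. The summed markers of progenitors, astrocytes and the oligodendrocyte lineage were at least 3792, 3808 and 2363 CPM in all 12 samples, although single markers could be far lower, such as *Mog* (0.69 to 2.58 CPM). The summed neuron markers were between 638 and 1715 CPM and those of fibroblasts and mural cells between 8.15 and 30.3 CPM, while the summed markers of microglia stayed between 1.29 and 10.3 CPM and those of endothelium between 1.12 and 5.49 CPM, with *Cldn5* at 0 in 11 of 12 samples. The *ACVR1* WT samples stood apart from the rest in their spread. Their biological coefficient of variation was 0.275, against 0.045 to 0.059 within the other 3 groups, and their summed level of 7 astrocyte markers was 3808, 9127 and 13662 CPM in replicates 1, 2 and 3, against 4713 to 7069 CPM in the other 9 samples. Without replicate 1 of *ACVR1* WT, 23.1% of all genes passed the threshold for the R206H difference in the absence of H3.1K27M, but still 0 of the 8 genes, whose log2 fold changes were then between -0.71 (*Sstr2*) and 0.37 (*Stk32b*). The interaction then passed in 8 of the 8 and in 26.6% of all genes. Without any 1 of the other 11 samples, it passed in only 1 to 3 of the 8, although all 8 values stayed positive. In the lowest of these fits only 3 of all genes tested passed.

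The *Acvr1* count also differed between the groups. Reads of viral human *ACVR1* and of the mouse gene cannot be told apart in it, and its level was 53.1, 46.1 and 52.3 CPM with *ACVR1* WT and 114, 82.3 and 86.1 CPM with *ACVR1* R206H. With H3.1K27M it was 172, 163 and 368 CPM for *ACVR1* WT and 1000.5, 548 and 1056 CPM for *ACVR1* R206H. The *ACVR1* R206H with H3.1K27M group was thus 3.70-fold over *ACVR1* WT with H3.1K27M and 9.21-fold over *ACVR1* R206H alone, while *ACVR1* R206H alone was 1.87-fold over *ACVR1* WT. Among the *ACVR1* R206H with H3.1K27M samples, replicate 2 had the lowest *Acvr1* level and the lowest level of 8 of the 8 genes, where 46.9% of all genes tested were lowest in that sample. Among the *ACVR1* WT with H3.1K27M samples, replicate 3 had the highest *Acvr1* level and the lowest level of 5 of the 8 genes, where 36.3% of all genes were lowest. Among the *ACVR1* R206H samples, replicate 1 had the highest *Acvr1* level. It was highest for 3 and lowest for 2 of the 8 genes, against 31.3% and 32.1% of all genes. Among the *ACVR1* WT samples, replicate 2 had the lowest *Acvr1* level and the lowest level of 2 of the 8 genes, against 20.9% of all genes. The part of the receptor level in the differences of the 8 genes was not tested, and in these bulk samples more cells with a transcript and more transcript per cell cannot be told apart.

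**Figure D2:**
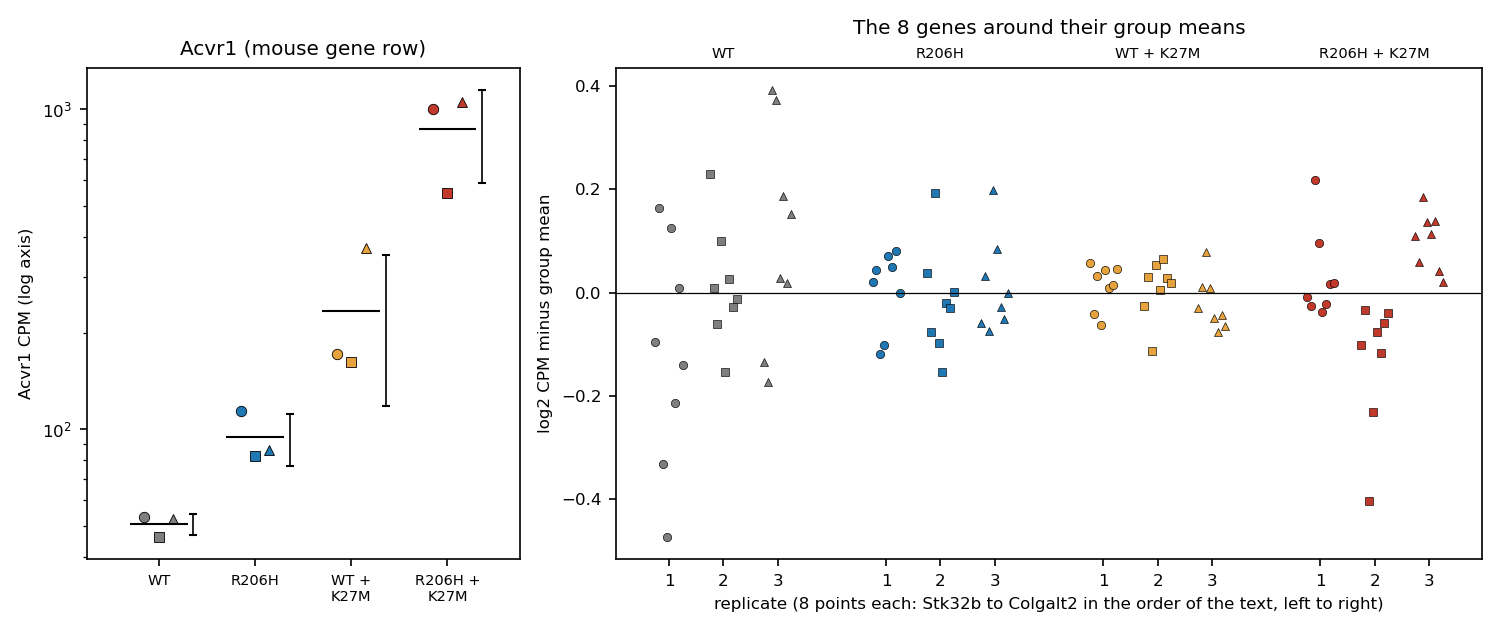
The left panel plots *Acvr1* CPM on a log axis by group (line, mean; bar, SD, n = 3). The right panel plots, for each replicate, the log2 CPM of the 8 genes minus their group mean. *Acvr1* lies between 46.1 and 53.1 CPM with *ACVR1* WT and between 548 and 1056 CPM with *ACVR1* R206H and H3.1K27M, and all 8 points of replicate 2 of the latter group lie under 0.

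*Stk32b* (ENSMUSG00000029123, minus strand of chromosome 5, 37446825 to 37717171 of mm10) codes for a little-studied serine/threonine kinase. It had 1.65, 2.06 and 1.60 CPM with *ACVR1* WT, 2.41, 2.44 and 2.28 CPM with *ACVR1* R206H, 3.69, 3.49 and 3.48 CPM with *ACVR1* WT and H3.1K27M, and 14.5, 13.6 and 15.7 CPM with *ACVR1* R206H and H3.1K27M. No 2 of these groups overlapped, so that the levels formed 3 steps of unequal size. *ACVR1* R206H was 4.10-fold over *ACVR1* WT with H3.1K27M (log2 fold change 2.07, SE 0.10) and 1.34-fold without it (0.42, SE 0.18), a difference of 1.65 on the log2 scale. *Stk32b* was also the gene of the 8 with the largest difference by H3.1K27M averaged over both receptors, described further on. Its counts were low without H3.1K27M, from 33 to 48 reads per sample.

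*Sstr2* (ENSMUSG00000047904, plus strand of chromosome 11, 113619342 to 113626028), the type 2 somatostatin receptor, had the lowest mean level of the 8 per length of exon over all 12 samples. It had 0.94, 1.13 and 1.55 CPM with *ACVR1* WT, 0.75, 0.94 and 0.78 CPM with *ACVR1* R206H, 1.16, 1.05 and 1.20 CPM with *ACVR1* WT and H3.1K27M, and 5.28, 3.43 and 5.15 CPM with *ACVR1* R206H and H3.1K27M. The last group stood well clear, while *ACVR1* WT with H3.1K27M lay inside the range of *ACVR1* WT. The log2 fold change of *ACVR1* R206H was 2.04 (SE 0.20) with H3.1K27M and -0.56 (SE 0.27) without it, so that the sign turned between the backgrounds and the gap of 2.61 was the widest of the 8. Without *ACVR1* WT replicate 3, the value in the absence of H3.1K27M was -0.34. The values without H3.1K27M rest on 15 to 32 reads per sample. There the lowest *ACVR1* WT sample (0.941 CPM) was hardly above the highest *ACVR1* R206H sample (0.936 CPM). The *ACVR1* WT with H3.1K27M samples, the base of the difference with H3.1K27M, held only 22 to 30 reads. *Slc39a11*, a zinc transporter gene that overlaps *Sstr2* and was counted without regard to strand, had a log2 fold change of 0.01 (SE 0.05, adjusted p = 0.94 in edgeR's test) with H3.1K27M.

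*Lcat* (ENSMUSG00000035237, minus strand of chromosome 8, 105939551 to 105943382) had the largest R206H difference with H3.1K27M of the 8. It had 11.9, 17.7 and 21.4 CPM with *ACVR1* WT, 20.1, 20.1 and 24.7 CPM with *ACVR1* R206H, 13.4, 14.5 and 14.0 CPM with *ACVR1* WT and H3.1K27M, and 66.6, 53.1 and 68.5 CPM with *ACVR1* R206H and H3.1K27M. The *ACVR1* WT group spanned both *ACVR1* WT with H3.1K27M and part of *ACVR1* R206H, and the last group was far above all 3. *ACVR1* R206H was 4.49-fold over *ACVR1* WT with H3.1K27M (log2 fold change 2.20, SE 0.09) and 1.27-fold without it (0.34, SE 0.22). In *ACVR1* WT replicate 1, the sample low in astrocyte markers, *Lcat* was lowest of its group. The same held for 4 of the 8 genes, *Lcat* included, and for 43.2% of all genes. Without that sample the log2 fold change of *Lcat* in the absence of H3.1K27M was 0.14 (SE 0.13), against 0.54 without replicate 3.

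The sequences just upstream of *Stk32b*, *Sstr2* and *Lcat*, which had the 3 largest R206H differences with H3.1K27M, are shown with their matches to GGCGCC and CAGAC, letters that BMP-responsive SMAD proteins are known to bind. That these genes share a pattern follows from how they were chosen. They come from RefSeq on GRCm38.p6, 5′ to 3′ on the strand of the gene. Each ends just before the RefSeq start or the GENCODE start, whichever lies farther upstream, which for *Stk32b* is 18 bases before the RefSeq start. They cover chr5:37717172-37717403 (minus strand), chr11:113619077-113619326 (plus strand) and chr8:105943403-105943589 (minus strand). Capitals mark matches to GGCGCC or CAGAC on either strand, so that GTCTG is a CAGAC on the other strand. The *Lcat* stretch starts after the last exon of its neighbor *Slc12a4*.
Stk32b: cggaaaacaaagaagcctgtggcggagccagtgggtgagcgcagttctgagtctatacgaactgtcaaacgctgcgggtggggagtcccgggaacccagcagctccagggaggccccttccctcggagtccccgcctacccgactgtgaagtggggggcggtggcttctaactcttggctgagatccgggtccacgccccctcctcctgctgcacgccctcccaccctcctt
Sstr2: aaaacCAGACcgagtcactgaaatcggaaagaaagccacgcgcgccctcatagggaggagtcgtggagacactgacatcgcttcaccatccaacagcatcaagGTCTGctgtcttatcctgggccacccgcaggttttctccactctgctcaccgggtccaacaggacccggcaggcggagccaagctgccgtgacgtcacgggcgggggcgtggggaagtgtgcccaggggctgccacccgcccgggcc
Lcat: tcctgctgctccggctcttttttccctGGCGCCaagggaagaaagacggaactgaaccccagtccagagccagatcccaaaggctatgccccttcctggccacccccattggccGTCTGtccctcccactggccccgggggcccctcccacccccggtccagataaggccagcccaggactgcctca
*Lcat* held 1 GGCGCC at 160 bases and 1 CAGAC at 73 bases before its RefSeq start, *Sstr2* held 2 CAGAC, and the stretch of *Stk32b* held 0 of either. Promoter windows of 300 bases, reaching 50 bases into the gene, were found for 5 of the 8 genes (these 3, *Hs3st3b1* and *Parvb*). Over both strands, GGCGCC was in the windows of *Sstr2* and *Lcat* and in 11.9% of all 32817 windows, and CAGAC in those of *Stk32b*, *Sstr2* and *Lcat* and in 49.6% of all. CANNTG, TTCNNNGAA and TGANTCA were in 72.3%, 8.29% and 7.81% of all windows, and in 3, 0 and 0 of the 5. Such matches are letters in a window and not evidence of binding.

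*Hs3st3b1* (ENSMUSG00000070407, minus strand of chromosome 11, 63885792 to 63922290) had 33.6, 27.7 and 31.5 CPM with *ACVR1* WT, 39.0, 33.4 and 39.4 CPM with *ACVR1* R206H, 27.8, 27 and 26.0 CPM with *ACVR1* WT and H3.1K27M, and 56.3, 54.8 and 62.5 CPM with *ACVR1* R206H and H3.1K27M. The mean was lowest with *ACVR1* WT and H3.1K27M, where the samples just overlapped those of *ACVR1* WT alone, and highest with *ACVR1* R206H in that background. The log2 fold change of *ACVR1* R206H was 1.13 (SE 0.06) with H3.1K27M and 0.26 (SE 0.11) without it, where the 2 groups overlapped.

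*Cxxc5* (ENSMUSG00000046668, plus strand of chromosome 18, 35829397 to 35861688) followed the same order of groups. It had 76.0, 89.9 and 100.5 CPM with *ACVR1* WT, 105, 100.5 and 99.9 CPM with *ACVR1* R206H, 66.7, 69.3 and 62.9 CPM with *ACVR1* WT and H3.1K27M, and 137, 129 and 154 CPM with *ACVR1* R206H and H3.1K27M. The samples of *ACVR1* WT with H3.1K27M were below all other samples, and those of *ACVR1* R206H with H3.1K27M above all others. The log2 fold change of *ACVR1* R206H was 1.11 (SE 0.06) with H3.1K27M and 0.19 (SE 0.11) without it, the latter being 0.095 without *ACVR1* WT replicate 1 and 0.291 without replicate 3. Its wider gap between the receptors with H3.1K27M thus came with both a lower *ACVR1* WT group and a higher *ACVR1* R206H group than without the histone.

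*Nptx1* (ENSMUSG00000025582, minus strand of chromosome 11, 119538719 to 119547753), neuronal pentraxin 1, had 93.1, 83.6 and 73.7 CPM with *ACVR1* WT, 70.6, 65.0 and 70.0 CPM with *ACVR1* R206H, 134, 141 and 139 CPM with *ACVR1* WT and H3.1K27M, and 199, 198 and 211 CPM with *ACVR1* R206H and H3.1K27M. All 4 groups were separated, with *ACVR1* R206H lowest without H3.1K27M and highest with it. The log2 fold changes of *ACVR1* R206H were 0.58 (SE 0.04) with H3.1K27M and -0.29 (SE 0.10) without it. The direction without H3.1K27M was the same when *ACVR1* WT replicate 1 was left out (-0.20, SE 0.07).

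*Parvb* (ENSMUSG00000022438, plus strand of chromosome 15, 84232043 to 84315688), which codes for beta-parvin, a partner of integrin-linked kinase, had 40.9, 39.9 and 41.2 CPM with *ACVR1* WT, 47.3, 43.8 and 43.2 CPM with *ACVR1* R206H, 48.8, 49.3 and 46.9 CPM with *ACVR1* WT and H3.1K27M, and 73.2, 69.4 and 74.5 CPM with *ACVR1* R206H and H3.1K27M. *ACVR1* R206H alone and *ACVR1* WT with H3.1K27M overlapped, and each lay above *ACVR1* WT. The log2 fold change of *ACVR1* R206H was 0.61 (SE 0.05) with H3.1K27M and 0.13 (SE 0.07) without it.

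*Colgalt2* (ENSMUSG00000032649, plus strand of chromosome 1, 152399830 to 152510695) had 12.6, 13.8 and 15.4 CPM with *ACVR1* WT, 13.1, 13.2 and 13.1 CPM with *ACVR1* R206H, 19.5, 19.2 and 18.1 CPM with *ACVR1* WT and H3.1K27M, and 28.5, 27.4 and 28.5 CPM with *ACVR1* R206H and H3.1K27M. Both groups without H3.1K27M overlapped, and the groups with it formed 2 higher steps. The log2 fold change of *ACVR1* R206H was 0.60 (SE 0.06) with H3.1K27M and -0.09 (SE 0.11) without it, the latter being -0.16 without *ACVR1* WT replicate 1 and -0.013 without replicate 3.

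**Figure D3:**
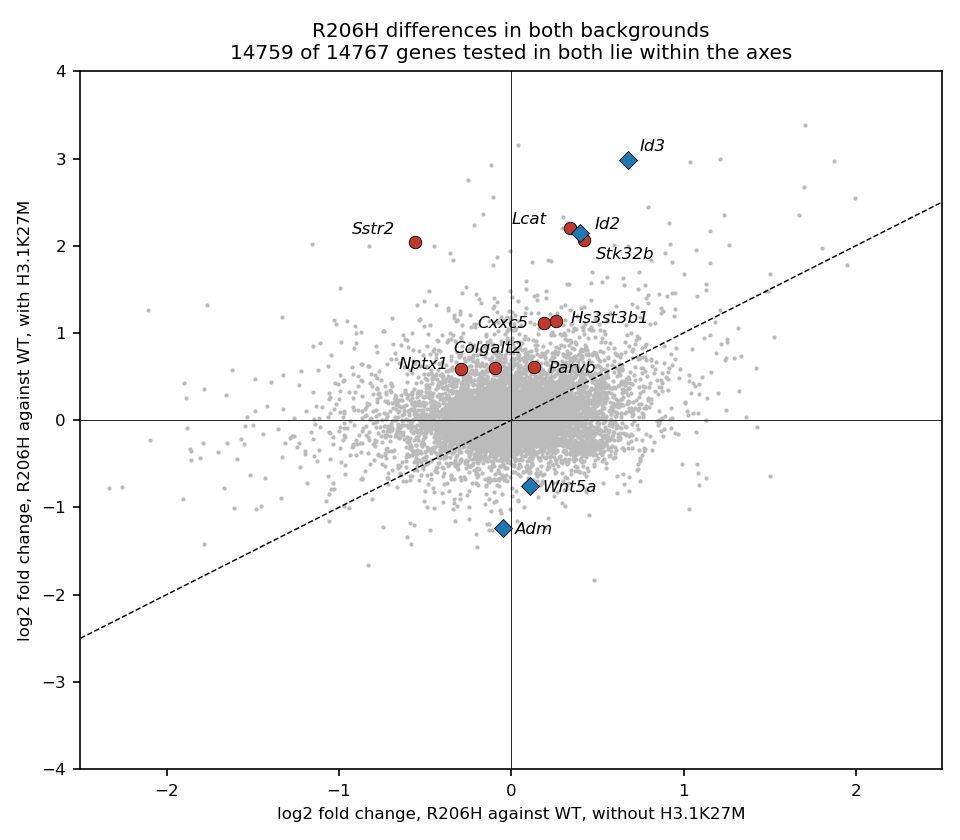
Each point is 1 gene, with the log2 fold change of *ACVR1* R206H over *ACVR1* WT without H3.1K27M on the x axis and with H3.1K27M on the y axis (grey, 14759 of the 14767 genes tested in both; red circles, the 8 genes; blue diamonds, the other 4 genes with an interaction past the threshold; dashed, equal change). The 8 genes lie above the dashed line, with interactions of 0.49 to 2.61, and *Nptx1*, *Sstr2* and *Colgalt2* lie left of 0.

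Per kilobase of exon, which allows levels to be compared between genes, the mean level over the 12 samples was 33.0 CPM per kb for *Cxxc5*, 23.6 for *Nptx1*, 21.5 for *Lcat*, 11.7 for *Parvb*, 7.79 for *Hs3st3b1*, 4.37 for *Colgalt2*, 1.61 for *Stk32b* and 0.91 for *Sstr2*. The order differed between groups, as *Lcat* (46.7) was level with *Cxxc5* (46.5) with *ACVR1* R206H and H3.1K27M, *Nptx1* (26.5) was above *Cxxc5* (22.0) with *ACVR1* WT and H3.1K27M, and *Stk32b* (0.51) was below *Sstr2* (0.56) with *ACVR1* WT. The genes thus ranged from the 19.1 to the 89.8 percentile of the genes tested. *Stk32b* and *Sstr2*, the 2 lowest, were among the 3 genes with the largest R206H log2 fold change with H3.1K27M. *Nptx1*, *Sstr2* and *Hs3st3b1* lie on chromosome 11, which holds 7.69% of the genes tested, but megabases apart.

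The effect of H3.1K27M averaged over both receptors tells whether the 8 genes also differed with the histone. The choice of the genes did not use this average, but it is not independent of it. The *ACVR1* R206H with H3.1K27M group, in which all 8 were highest, enters the average, and the *ACVR1* WT group varied more than the others. The values are therefore given as a description. *Stk32b* (log2 fold change 1.81, SE 0.09), *Sstr2* (1.20, SE 0.17) and *Nptx1* (1.14, SE 0.05) had the largest averages. *Colgalt2* (0.77, SE 0.06), *Lcat* (0.62, SE 0.13), *Parvb* (0.47, SE 0.04) and *Hs3st3b1* (0.22, SE 0.06) were positive as well, and *Cxxc5* had 0.02 (SE 0.07). In edgeR's test 7 of the 8 passed as higher, with *Cxxc5* as the exception, where 26.3% of the 15445 genes tested passed as higher and 54.1% in either direction. Nothing is read from that count, since in the *ACVR1* WT samples alone 4 of the 8 were higher with H3.1K27M and 4 lower, with a median of 0.07.

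Split by receptor, which again uses the differences behind the choice, the 8 genes differed within *ACVR1* WT but not in direction within *ACVR1* R206H. Within *ACVR1* WT, *Stk32b* (0.99), *Nptx1* (0.72), *Colgalt2* (0.43) and *Parvb* (0.24) had higher levels with H3.1K27M on the log2 scale, with no overlap between samples and an adjusted p under 0.05. Over all genes, 23.5% were separated in this direction, and 12.6% passed as higher of 23% that passed in either direction. *Cxxc5* was lower (-0.43) with no overlap, as for 21.1% of genes, and past the threshold, as for 10.4%. *Sstr2* (-0.10), *Lcat* (-0.29) and *Hs3st3b1* (-0.21) had overlapping groups. Within *ACVR1* R206H, all 8 were higher, from 0.49 for *Cxxc5* to 2.64 for *Stk32b*, where 29.1% of genes passed as higher of 56.5% that passed in either direction. The groups of all 8 were separated there, as for 29.3% of genes in the higher and 33.8% in the lower direction. The effect of H3.1K27M cannot be told apart from that of a second virus, or from the higher *Acvr1* count in the groups that received it.

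**Figure D4:**
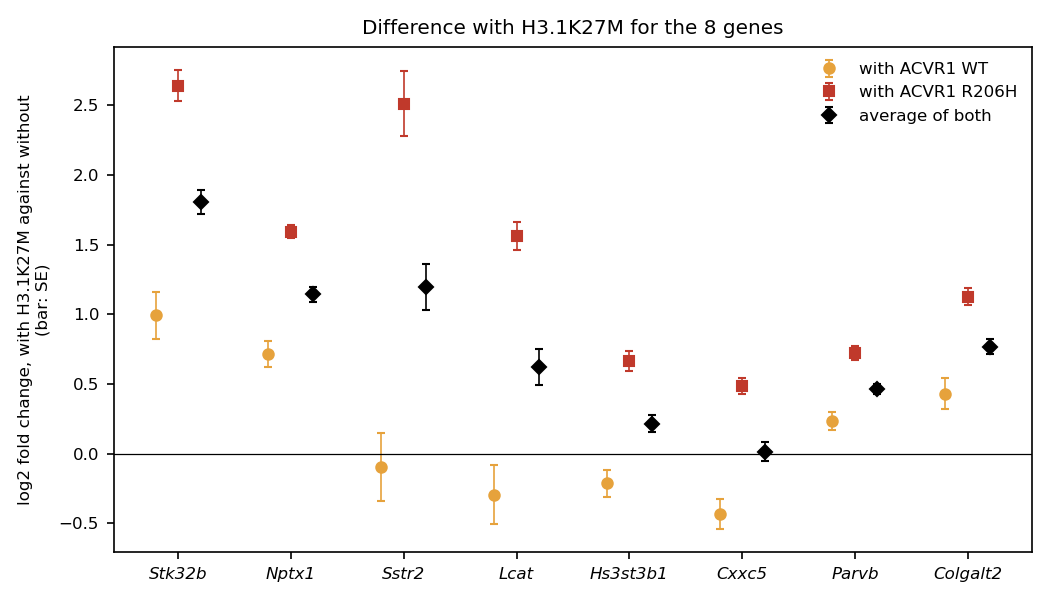
The y axis is the log2 fold change between samples with and without H3.1K27M for each gene on the x axis (circles, within *ACVR1* WT; squares, within *ACVR1* R206H; diamonds, average of both; bars, SE). The squares are all above 0, from 0.49 to 2.64, while the circles run from -0.43 to 0.99 and 4 of them are below 0.

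The 4 other genes with an interaction past the threshold were *Id2* and *Id3*, 2 BMP targets that hold back differentiation, *Adm*, the gene of the vasodilator peptide adrenomedullin, and *Wnt5a*, a Wnt ligand. *Id3* had the shape of *Cxxc5*, with group means of 94.0 and 151 CPM for *ACVR1* WT and *ACVR1* R206H and of 43.1 and 334 CPM with H3.1K27M (interaction 2.31, SE 0.23, adjusted p = 0.0059 in edgeR's test). *Id2* had 196 and 259 CPM without and 127 and 549.8 CPM with H3.1K27M (interaction 1.75, SE 0.18, adjusted p = 0.0059). *Adm* went the other way, with 22.0 and 21.4 CPM without and 12.2 and 5.06 CPM with H3.1K27M (interaction -1.18, SE 0.15, adjusted p = 0.021). *Wnt5a* had 90.9 and 98.4 CPM without and 143 and 83.3 CPM with H3.1K27M (interaction -0.85, SE 0.13, adjusted p = 0.048). The calls of *Id2* and *Id3* held in each of 6 alternatives and in all 12 fits that left out 1 sample. Those of *Adm* and *Wnt5a* were lost with the replicate block (adjusted p = 0.078 and 0.058) and with limma voom (adjusted p = 0.055 and 0.081), and held in 3 and 1 of those 12 fits, in both cases including the one without *ACVR1* WT replicate 1. Their interaction values stayed negative throughout, from -1.24 to -1.10 and from -0.94 to -0.79.

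The 8 genes correlated with each other over the 12 samples with a Pearson r of log2 CPM from 0.28 (*Nptx1* and *Cxxc5*) to 0.99 and a median of 0.86. The values include the differences between the 4 groups and are given without a test. The 2 other genes most like each were *Id3* (r = 0.99) and *Id2* (0.98) for *Cxxc5*, *Nog* (0.97) and *Id2* (0.97) for *Lcat*, and *Gbx2* (0.96) and *Id1* (0.96) for *Hs3st3b1*. For *Stk32b* they were *Oxtr* and *Megf9* (both 0.98), for *Nptx1* *Lgals9* (0.98) and *Atf5* (0.97), and for *Sstr2* *Fam8a1* and *Gm7694* (both 0.95). *Slain1* and *Sema3b* (both 0.98) were most like *Parvb*, and *Scd1* and *Fam19a5* (both 0.98) most like *Colgalt2*. *Id* genes, which are BMP targets, were thus among the 2 for *Cxxc5*, *Lcat* and *Hs3st3b1* and not for the other 5.

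Relatives of the 8 genes were compared between *ACVR1* R206H and *ACVR1* WT with H3.1K27M, where 20.3% of all genes passed. Of 15 BMP response genes, 13 rose and 0 fell, with a median log2 fold change of 1.70 against 0.00 over all genes. *Atoh8* (3.38, SE 0.12), *Id1* (2.99, SE 0.08), *Id3* (2.99, SE 0.08) and *Id2* (2.15, SE 0.06) were among them, with adjusted p values from 2.8e-10 to 6.9e-09 in edgeR's test. *Msx2* (0.48, SE 0.28) and *Runx2* (0.58, SE 0.20) did not pass. Without H3.1K27M the median of the 15 was 0.40 against -0.01 over all genes, and 0 passed, as for all genes. With H3.1K27M, the heparan sulfate genes around *Hs3st3b1* numbered 19 tested of 22. Of these, 6 rose, 1 fell and 12 did not pass, with a median of 0.08. *Hs3st3a1*, the closest paralog of *Hs3st3b1*, had 1.74, 1.96 and 2.60 CPM with *ACVR1* WT and 7.42, 7.72 and 9.60 CPM with *ACVR1* R206H in this background (log2 fold change 2.00, SE 0.16, adjusted p = 4.2e-06). Its groups were also apart without H3.1K27M, from 1.65 to 2.96 CPM with *ACVR1* WT and from 3.27 to 3.60 CPM with *ACVR1* R206H. Reads that match both paralogs were left out by the counting. *Ndst3* (1.34, SE 0.15, adjusted p = 5.8e-05) and *Hs3st5* (1.64, SE 0.39, adjusted p = 0.011), which act on the same chains, rose. So did *Hs2st1* (0.21, adjusted p = 0.0012), *Hs3st1* (0.67, adjusted p = 0.0074) and *Extl1* (0.43, adjusted p = 0.042). *Hs3st4* fell by 0.39 (SE 0.12, adjusted p = 0.044).

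The lists around the other genes were compared likewise. Among the STK32 kinases, *Stk32a* rose by 0.44 (SE 0.07, adjusted p = 0.00061 in edgeR's test) and *Stk32c* had -0.18 (SE 0.12, adjusted p = 0.34). Of 6 pentraxin and AMPA receptor genes, *Gria1* (0.53), *Gria2* (0.48) and *Gria4* (0.38), which code for subunits of the glutamate receptor that pentraxins bind, rose, while the pentraxin relatives *Nptx2* (-0.43, adjusted p = 0.076) and *Nptxr* (-0.17, adjusted p = 0.078) did not pass. Only *Sstr1* of the 6 somatostatin genes had enough counts, and its value was -0.35 (SE 0.21, adjusted p = 0.28). Of 8 lipoprotein genes tested, *Clu* (0.25) and *Pltp* (0.23) rose, and *Apoe* (-0.48) and *Apod* (-0.53) fell. Of 11 CXXC finger genes, *Dnmt1* (-0.23), the maintenance DNA methyltransferase, fell, and *Cxxc4*, the closest paralog of *Cxxc5*, had -0.18 (adjusted p = 0.10). Of 5 genes tested around *Parvb*, *Pxn* (0.22) rose and *Lims2* (-0.90) fell, and the paralog *Parva* had 0.01 (adjusted p = 0.88). Of 7 collagen-modifying genes, the hydroxylases *P4ha2* (1.19), *P4ha3* (0.89) and *Plod2* (0.38) rose, and the paralog *Colgalt1* had -0.08 (adjusted p = 0.17). The interaction passed in 2 of the 15 BMP response genes (*Id2* and *Id3*) and in 0 genes of the other lists, where 0.0712% of all genes passed.

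**Figure D5:**
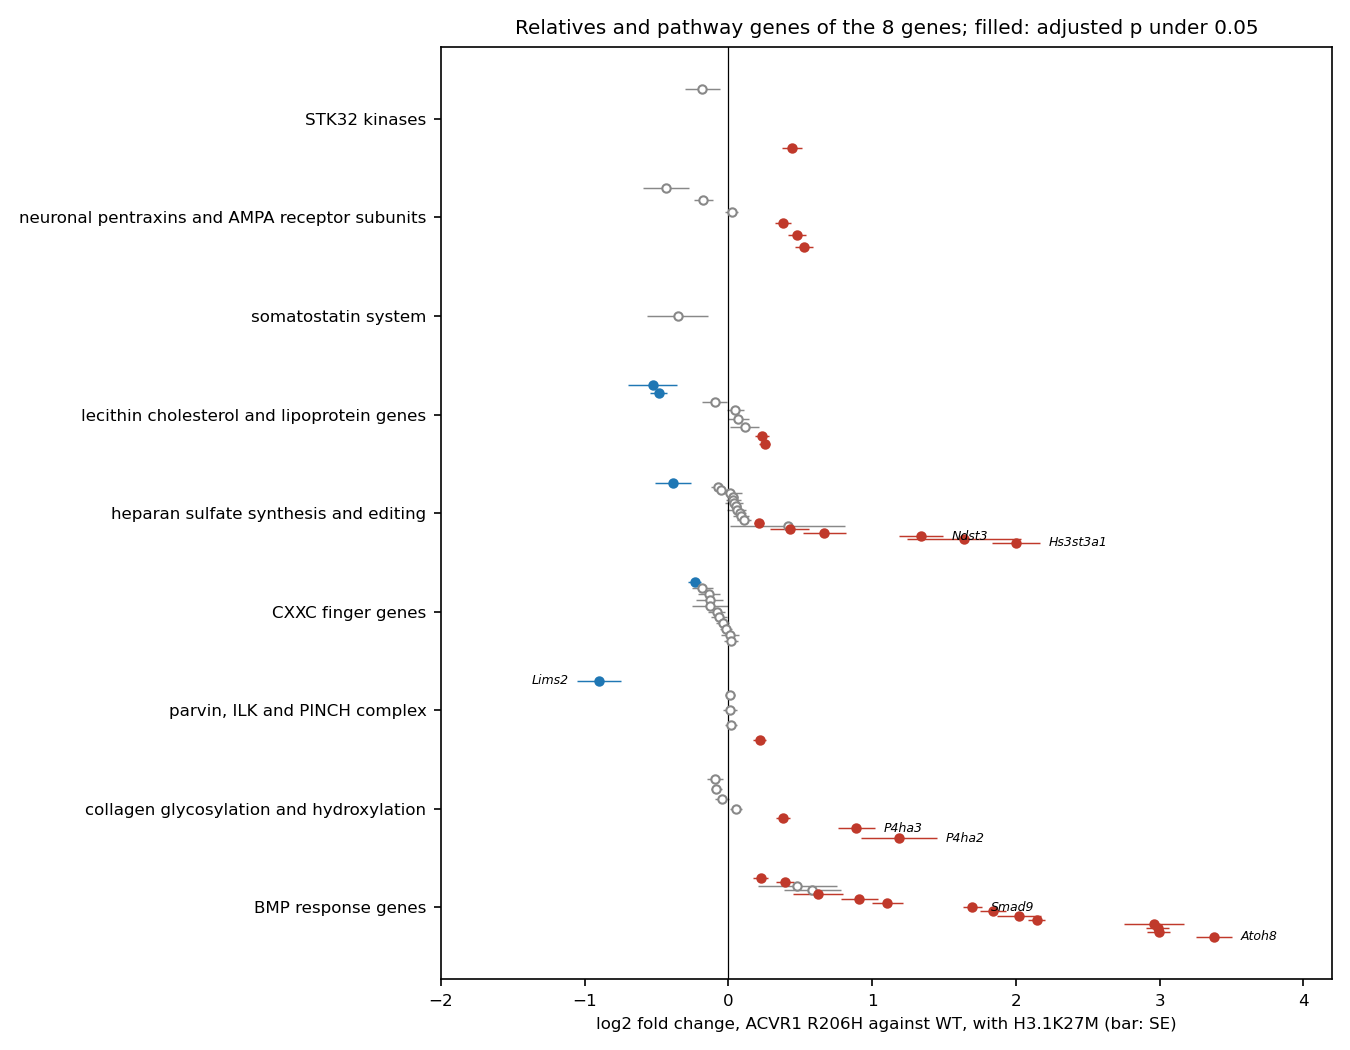
Each point is 1 gene of the list named on the y axis, with its log2 fold change of *ACVR1* R206H over *ACVR1* WT with H3.1K27M on the x axis (bars, SE; filled, adjusted p under 0.05 in edgeR's test; red, higher; blue, lower). The BMP response genes reach 3.38 and the heparan sulfate genes 2.00, while the CXXC finger genes stay between -0.23 and 0.02.

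The neighbors of the 8 genes on the chromosome were compared in the same way. Of the 16 nearest genes tested, 4 passed as higher with *ACVR1* R206H and H3.1K27M and 1 as lower, where 11.4% and 8.95% of all genes did so. *Slc12a4*, which ends 208 bases upstream of *Lcat*, rose by 0.38 (SE 0.04, adjusted p = 7.0e-05 in edgeR's test), and *Msx1*, 103314 bases from *Stk32b* and itself a BMP target, rose by 0.62 (SE 0.17, adjusted p = 0.024). *Gm12286*, as far as 572481 bases from *Hs3st3b1*, rose by 1.87 (SE 0.50, adjusted p = 0.020). *Ube2d2a*, 19903 bases from *Cxxc5*, rose by 0.15 (SE 0.04, adjusted p = 0.026). *Shisal1*, 63515 bases from *Parvb*, fell by 0.33 (SE 0.07, adjusted p = 0.0057). The neighbors of *Nptx1*, *Sstr2* and *Colgalt2* did not pass.

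Marker genes of cell types moved in the same comparison, where 11.4% of all genes passed as higher and 8.95% as lower. Of 8 oligodendrocyte lineage markers, 0 rose and 6 fell, with a summed level from 3626 to 4284 CPM with *ACVR1* WT and from 3481 to 3572 CPM with *ACVR1* R206H. Of 7 astrocyte markers, 3 rose and 1 fell, with sums from 4713 to 4960 CPM and from 5587 to 5650 CPM. Of 8 neuron markers, 2 rose and 1 fell, with sums from 783 to 816 CPM and from 638 to 689.8 CPM. Of 7 progenitor markers, 4 rose and 1 fell. Of the sparse markers, 3 of 5 fibroblast and mural genes tested rose, with sums from 14.0 to 16.6 CPM and from 23.8 to 30.3 CPM, as did 1 of 3 endothelial and 1 of 1 microglial genes tested. The part of these markers in the differences of the 8 genes was not tested.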

How the data were processed

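The 12 count tables, 1 per sample, were read with the group and replicate given by the labels. Per the study's methods and processing notes, the authors used STAR 2.6.0b-1 to align paired reads to mm10 (GRCm38), counted them with HTSeq on Ensembl genes (no strand, union mode, minimum alignment quality 10, no reads with several matches) and deposited raw counts, not pooled. From these, CPM was computed after TMM scaling over the 12 samples. Comparisons used edgeR 4.0.16 (quasi-likelihood F test, R 4.3.3) on genes with a mean scaled count of at least 10, with Benjamini-Hochberg adjustment over all genes tested and a threshold of 0.05. Each R206H comparison used its own 6 samples, and the interaction and the average H3.1K27M effect all 12. Alternatives were DESeq2 1.42.0, its size factors within edgeR, limma 3.58.1 voom with a weight per group, other filters, a replicate block, all samples in 1 fit, and leaving out each replicate. Symbols were matched for 54409 genes, and positions are those of GENCODE M21. Precision is limited by the 3 samples per group and, for genes with few reads, by depth (median total count 20994196).

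The 8 genes, the lists of related genes and the markers were chosen with earlier results of these data known. Named genes were the 8 and the other genes with an interaction past the threshold. From each list they were up to 4 genes past the threshold together with the closest paralogs. In the heparan sulfate list, all genes past the threshold were named instead. The 2 genes most correlated with each of the 8 were named as well. The overlapping gene *Slc39a11*, the nearest neighbors, the BMP response genes *Msx2* and *Runx2* and 2 cell type markers were named in addition, after their values were seen.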

Additional observations from a re-analysis of the deposited data

Results flagged for a closer look

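In 11 genes the R206H effect was not the same with and without H3.1K27M by the interaction term of edgeR's quasi-likelihood test. Most of these calls depend on the fit, as 2 genes passed with the replicate block, 3 with limma voom, 96 with DESeq2 and from 3 to 4112 when 1 sample was left out, the highest number without *ACVR1* WT replicate 1. Of the 11, 7 are genes that had been chosen for this difference, so that their values only describe the choice. On the log2 scale the difference was 2.61 for *Sstr2*, 1.86 for *Lcat*, 1.65 for *Stk32b*, 0.92 for *Cxxc5*, 0.88 for *Nptx1*, 0.88 for *Hs3st3b1* and 0.49 for *Parvb*. The other 4 genes had 2.31 (*Id3*), 1.75 (*Id2*), -1.18 (*Adm*) and -0.85 (*Wnt5a*). The calls of *Id2* and *Id3* held in each of 6 alternatives and in all 12 fits that left out 1 sample, while 0 genes passed in the negative direction with the replicate block or limma voom.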

How the results depend on the processing

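With H3.1K27M, the 8 genes kept a positive R206H log2 fold change that moved by less than the replicate SD in 104 of 104 values, and all 8 passed in each alternative. Over all genes the count of 3185 past the threshold fell to 440 with all 12 samples in 1 fit, and ran from 1915 to 2966 when 1 replicate was left out. Without H3.1K27M, 0 genes became 26 with DESeq2 and from 0 to 3485 when 1 replicate was left out, the latter without *ACVR1* WT replicate 1, and 0 of the 8 genes passed in each alternative. The interaction was the least stable count. Its 11 genes became 18 without a filter on low counts, 96 with DESeq2, 3 with limma voom and from 3 to 4112 when 1 replicate was left out. Of the 8 genes, 7 passed in edgeR, 8 in DESeq2, 1 with limma voom and from 1 to 8 when 1 replicate was left out, the highest number without *ACVR1* WT replicate 1, although all 144 interaction values stayed positive and 2 of them moved by more than the replicate SD.

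With the replicate number as a block, 2 genes passed the interaction and 0 of the 8, while 3335 genes passed with H3.1K27M, 0 without it and 8189 for the average H3.1K27M effect. Same-numbered samples correlated in their deviations from the group means from -0.11 to 0.32 over 18 pairs. Samples with different numbers were not compared, so these values do not settle whether the numbers pair the samples. The study used paired t tests for its neurosphere assays, on lines from independent litters, while its RNAseq methods name no block. The fit without a block was kept as the main one.

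For the average H3.1K27M effect, 8349 genes passed, from 7420 to 10061 when 1 replicate was left out and 3533 among *ACVR1* WT samples only, an alternative chosen after seeing the data. There *Sstr2* (-0.10), *Lcat* (-0.29), *Hs3st3b1* (-0.21) and *Cxxc5* (-0.43) turned negative. *Cxxc5*, whose average was 0.02, ran from -0.026 to 0.077 when 1 replicate was left out, and was negative without *ACVR1* WT replicate 1 (-0.026) and without *ACVR1* R206H with H3.1K27M replicate 3 (-0.01). It was 0.49 and past the threshold among *ACVR1* R206H samples only. The cause of these changes was not tested. Depth limits *Sstr2* and *Stk32b*, which had 15 to 48 reads per sample in the groups without H3.1K27M. *Sstr2* also had only 22 to 30 reads per sample with *ACVR1* WT and H3.1K27M.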
